A study of Mus musculus with 3 samples.

Results

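The 10 mouse genes described here drive or mark mesenchyme, and they were followed in H2AK119ub maps of newborn tongue epithelium: Snai1, Snai2, Snai3, Twist1, Twist2, Zeb1, Zeb2, Prrx1, Prrx2 and Pdgfra. They are 10 of the 21631 protein-coding genes of the reference. Their regions are those that carry a member's name in any location class or lie over its gene bounds, which gave 10 of 7838 regions in replicate 1 and 11 of 8093 in replicate 2. The assay was chromatin immunoprecipitation followed by sequencing (ChIP-seq) with an antibody against H2AK119ub, histone H2A carrying ubiquitin on a lysine near its tail. The cells were basal lingual epithelial cells of control mice at postnatal day 0, sorted on EpCAM after the back of the tongue with its circumvallate papillae had been cut away. There were 2 biological replicates of this group. An input library also belongs to the series and was not analysed here. No mutant or treated group was part of the comparison, and the sources used here do not give the strain or sex of the mice, the number of animals behind each replicate or what the control genotype carries.

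H2AK119ub is written by Polycomb repressive complex 1, whose catalytic subunits are Ring1 and Rnf2, and it typically covers developmental regulator genes that a cell type keeps silent. In the epithelial-mesenchymal transition an epithelial cell loses its junctions and takes up a migratory, mesenchymal state. Factors of the Snail, Twist and Zeb families can set that transition off, in large part by repressing the E-cadherin gene Cdh1 through E-box motifs. Prrx1 and Prrx2 are paired-type homeobox factors of limb and face mesenchyme, and Pdgfra encodes the PDGF receptor alpha, which marks fibroblasts and neural crest mesenchyme, the tissue that lies under the tongue epithelium. A histone mark does not measure expression, so the labelled cell type could be set only against where the mark lay. Of 8 epithelial markers, Krt15 alone was named by a promoter region in both replicates, in regions that were also assigned to Krt13 in replicate 1 and to Krt19 in replicate 2. The promoter of Krt5 lay under 14.9 kb of mark in replicate 2 only, Itgb4 was overlapped in both replicates by promoter regions assigned to its neighbours, and Epcam, Cdh1, Krt14, Trp63 and Dsp had no region in either. Of 8 fibroblast markers, Pdgfra alone, itself among the genes described here, was named by a promoter region in both replicates. Col1a1 and Thy1 were named by a promoter region in replicate 1 only, and Col1a2, Col3a1, Lum, Dcn and Dpt had no region in either. The share named in both replicates was 12.5% in each list, where 8.82% of all protein-coding genes were so named. The difference was not tested. The lists pool all sorted cells, so a mark in every cell and a mark in some of them cannot be told apart.

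H2AK119ub regions lay at the promoters of 6 of the 10 genes in both replicates, namely Snai1, Snai3, Twist1, Zeb2, Prrx1 and Pdgfra, where 8.82% of all protein-coding genes (1908) were named by a promoter region in both. In replicate 1 alone 7 of the 10 were so named, Twist2 being the added one, against 12.8% of all genes. In replicate 2 alone the same 6 were named, against 12.4%. Snai2 and Zeb1 had no region of any class in either replicate. Prrx2 had regions in replicate 2 away from its promoter and none of its own in replicate 1. With regions of any class, 7 of the 10 genes were named or overlapped in both replicates, against 16.8% of all genes. That count was 7 in replicate 1, against 22.8%, and 8 in replicate 2, against 22.6%. Because 4 of the 6 genes lay under very wide regions, leaving out the widest 5% of regions in each list kept only Zeb2 and Prrx1 as marked in both.

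**Figure D1:**
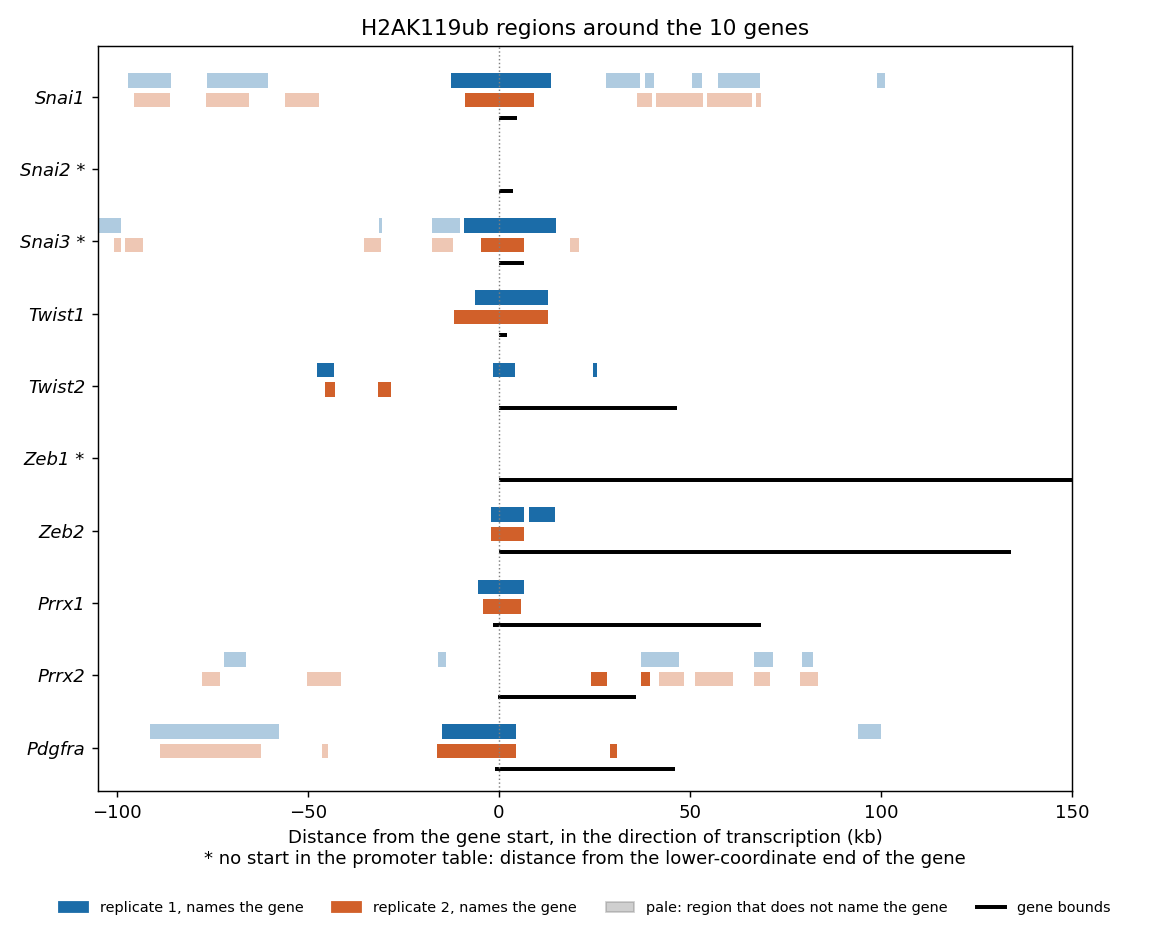
The plot sets the H2AK119ub regions of replicate 1 (blue) and replicate 2 (orange) around each of the 10 genes against distance from the gene start in kb, in the direction of transcription (for Snai2, Snai3 and Zeb1, which have no start in the promoter table, from the lower-coordinate end of the gene along the chromosome), with gene bounds as black lines and regions that do not name the gene in pale shades. Snai1, Snai3, Twist1, Zeb2, Prrx1 and Pdgfra have a region over the start or the gene in both replicates, while Snai2 and Zeb1 have none.

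For 5 of the 6 genes marked in both replicates, the mark lay over an annotated start site and not just near it. Start sites were taken from a RefSeq promoter table (GRCm38.p6, which is mm10), which holds a start for 7 of the 10 genes (Snai2, Snai3 and Zeb1 are not in it). An annotated start lay inside a region in both replicates for 5 of these 7, namely Snai1, Twist1, Zeb2, Prrx1 and Pdgfra, against 5.56% of the protein-coding genes in that table (961 of 17274). In replicate 1 it was 6 of 7, with Twist2 added, against 8.41%. In replicate 2 it was the same 5, against 8.06%. Gene bounds lay wholly inside regions in both replicates for Snai1 and Twist1, against 1.89% of all protein-coding genes (408). A promoter region of at least 10 kb in both replicates was carried by 4 genes, Snai1, Snai3, Twist1 and Pdgfra, against 3.48% of all protein-coding genes (753). Averaged over the 10 genes, 34.4% of the gene bounds was covered in replicate 1 and 34.1% in replicate 2, where the mean over all protein-coding genes was 6.51% and 6.15%. That mean rests on the short genes Snai1, Snai3 and Twist1, at 99.2% to 100%, and the other 7 genes lay between 0% and 15.0%.

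The start sites under the mark ranged from CpG-dense to CpG-poor. The printed windows run from 250 bases before to 50 bases after the start, are written 5′ to 3′ on the gene's own strand from RefSeq GRCm38.p6, and carry each CpG in capitals. Snai1 (chr2:167537945-167538244, plus strand) is shown as the densest window that was inside a region in both replicates, Prrx1 (chr1:163313601-163313900, minus strand) and Pdgfra (chr5:75152001-75152300, plus strand) as the sparsest such windows, and Prrx2 (chr2:30845117-30845416, plus strand) as a dense window inside no region.
Snai1: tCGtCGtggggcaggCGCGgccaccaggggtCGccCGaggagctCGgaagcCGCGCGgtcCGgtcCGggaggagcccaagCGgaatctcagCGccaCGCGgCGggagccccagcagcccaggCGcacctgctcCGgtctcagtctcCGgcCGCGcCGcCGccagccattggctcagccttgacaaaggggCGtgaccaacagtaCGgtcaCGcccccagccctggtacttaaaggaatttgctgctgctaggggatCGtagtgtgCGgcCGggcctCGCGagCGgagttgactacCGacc
Prrx1: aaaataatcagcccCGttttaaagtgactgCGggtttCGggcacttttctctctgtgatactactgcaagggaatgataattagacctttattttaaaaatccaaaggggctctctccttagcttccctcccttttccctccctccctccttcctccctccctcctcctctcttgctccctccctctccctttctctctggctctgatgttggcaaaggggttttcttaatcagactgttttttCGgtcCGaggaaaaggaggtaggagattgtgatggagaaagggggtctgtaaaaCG
Pdgfra: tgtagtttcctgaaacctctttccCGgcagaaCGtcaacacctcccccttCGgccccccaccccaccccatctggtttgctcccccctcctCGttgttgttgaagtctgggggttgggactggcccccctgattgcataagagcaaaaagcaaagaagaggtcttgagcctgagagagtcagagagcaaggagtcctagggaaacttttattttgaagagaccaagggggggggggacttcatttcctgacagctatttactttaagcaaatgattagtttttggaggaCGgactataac
Prrx2: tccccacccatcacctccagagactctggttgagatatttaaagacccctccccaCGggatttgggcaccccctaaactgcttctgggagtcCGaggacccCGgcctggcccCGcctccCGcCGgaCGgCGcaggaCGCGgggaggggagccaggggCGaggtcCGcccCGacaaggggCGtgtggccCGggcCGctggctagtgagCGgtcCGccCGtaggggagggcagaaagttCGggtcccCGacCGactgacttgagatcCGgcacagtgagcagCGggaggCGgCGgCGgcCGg
The Snai1 window held 34 CpGs, with a G+C content of 70.0% and an observed over expected CpG ratio of 0.93. The Prrx1 window held 6 CpGs, with a G+C content of 47.7% and a ratio of 0.36. The Pdgfra window held 5 CpGs, with a G+C content of 51.0% and a ratio of 0.26. So a dense window and both sparse ones lay under regions of more than 9 kb in both replicates. The Prrx2 window, with 28 CpGs, a G+C content of 70.3% and a ratio of 0.76, lay under none.

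The remaining windows fell between these. Twist1 had 27 CpGs and a ratio of 0.83, with its start inside a region in both replicates, and Twist2 had 25 CpGs and a ratio of 0.80, with its start inside a region in replicate 1. Zeb2 has 4 annotated starts: the first had 9 CpGs and a ratio of 0.51, the overlapping windows of the second and the third each had 8 and 0.42, and the fourth had 19 and 0.69. The first 3 were inside a region in both replicates and the fourth, the most CpG-dense of the 4, was inside none. Over all protein-coding windows whose start lay inside a region in both replicates (1138), the median was 19 CpGs and a ratio of 0.68, against 12 CpGs and 0.56 where the start lay inside none (18812).

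**Figure D2:**
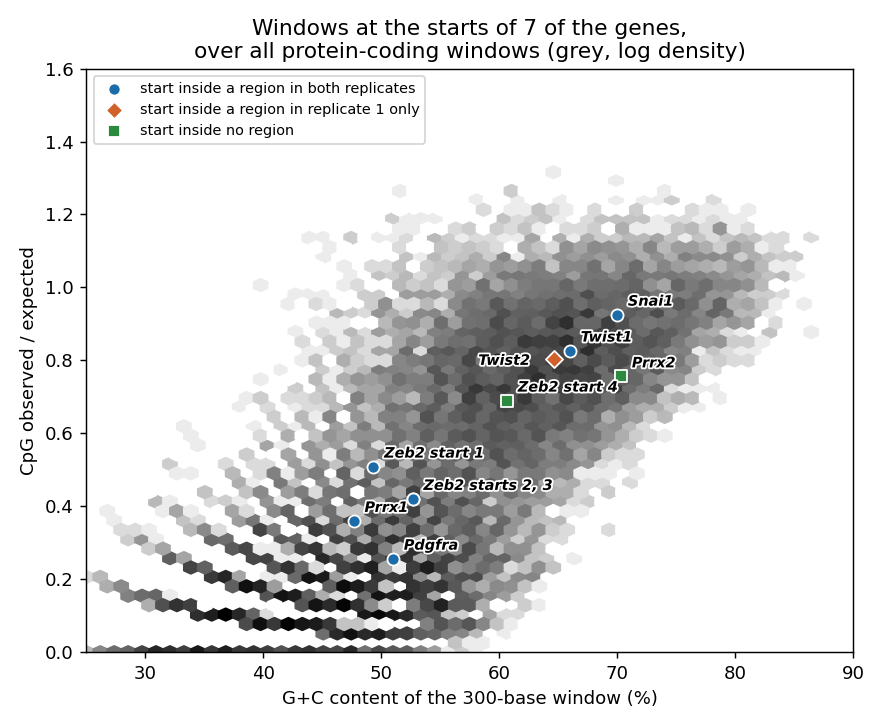
The plot sets the observed over expected CpG ratio of each 300-base window against its G+C content in percent, for the 10 windows of 7 genes over all protein-coding windows (grey, density on a log scale). Blue circles (start inside a region in both replicates) spread from Pdgfra at a ratio of 0.26 to Snai1 at 0.93, and the green squares (start inside no region), Prrx2 and the fourth Zeb2 start, sit at 0.76 and 0.69.

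E-box letters, the motif through which Snail, Twist and Zeb proteins act, were searched on both strands of the same windows. CACCTG, the core that Snail and Zeb zinc fingers bind, was in 1 of the 10 windows, that of Snai1, where 20.2% of all 32851 windows in the table hold it. The wider form CANNTG, which includes CACCTG, was in 2 of the 10, those of Snai1 and Pdgfra, against 72.3% of all windows. Among protein-coding windows the shares were 19.9% for CACCTG and 69.0% for CANNTG. The 10 windows come from 7 genes, and 4 of them are at Zeb2, of which 2 overlap. They are thus not independent, and the counts were not tested. The Snai1 match starts 126 bases upstream of the start and is given in capitals within its 20 bases (chr2:167538062-167538081, plus strand).
Snai1 E-box: ccaggcgCACCTGctccggt
A match describes letters in a window and is not evidence of binding. The Twist2 and Pdgfra windows also shared a run of 16 bases, printed in capitals, in the same orientation. It begins 41 bases before the Twist2 start (chr1:91801400-91801455, plus strand, as shown) and 6 bases before the Pdgfra start (chr5:75152225-75152280, plus strand, as shown), and these were the only 2 of the 32851 windows to hold it on either strand.
Twist2: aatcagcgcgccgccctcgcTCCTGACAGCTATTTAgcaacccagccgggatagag
Pdgfra: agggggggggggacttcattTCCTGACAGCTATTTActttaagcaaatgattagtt
The run was found by comparing all pairs among the 10 windows after the sequences had been seen, and a longer shared stretch between Twist2 and Zeb2 was all G but for 1 C.

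Among the Snail factors, Snai1 was covered in full in both replicates, Snai3 in full or nearly so, and Snai2 had no called region. Snai1, the zinc-finger repressor best known for silencing Cdh1, lies at chr2:167538195-167542814 and is 4.62 kb long. Its promoter region was 26.2 kb wide in replicate 1 (chr2:167525543-167551697) and 17.8 kb in replicate 2 (chr2:167529404-167547224). The replicate 2 region lay wholly inside that of replicate 1, so the shared stretch was 17.8 kb, or 68.1% of both regions joined. The mark reached 12.7 kb upstream and 13.5 kb downstream of the start in replicate 1, and 8.79 kb and 9.03 kb in replicate 2, so it was close to centred on the start. The Snai1 region was wider than 91.8% of promoter regions in replicate 1 and wider than 86.4% in replicate 2. The same stretch also covers the pseudogene Gm11474, which lies upstream of Snai1.

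The neighbourhood of Snai1 was also dense in the mark. Within 100 kb of the gene there were 8 regions in each replicate, and they covered 39.4% of that window in replicate 1 and 37.2% in replicate 2. For all protein-coding genes the upper quartile of the same measure was 6.13% and 5.66%. Among those regions, Slc9a8, which encodes a sodium-proton exchanger, carried gene body regions of 11.1 and 15.9 kb in replicate 1 and of 9.24 and 11.2 kb in replicate 2. The genes Rnf114 and Ube2v1 on either side were overlapped by no region, but replicate 2 had a promoter region of 8.98 kb over Spata2 that was assigned to Rnf114 and Spata2, and each replicate had a distal region assigned to Ube2v1.

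Snai3, the least studied Snail member, lies at chr8:122454204-122460809 and is 6.61 kb long. Its region was 23.9 kb wide in replicate 1 (chr8:122445088-122469001) and 11.1 kb in replicate 2 (chr8:122449625-122460759). The narrower region lay wholly within the wider one and made up 46.6% of it, the lowest agreement among the 6 genes. It covered 100% of the gene bounds in replicate 1 and 99.2% in replicate 2 (mean 99.6% ± 0.54, SD, n = 2). The replicate 1 region was also assigned to Mvd, an enzyme of the mevalonate pathway, and to the long non-coding RNAs 9330133O14Rik and Gm20735, and it ran 2.86 kb into the neighbouring gene Rnf166. The replicate 2 region was assigned to Snai3 and Gm20735. The name of Snai3 on these regions therefore stands beside those of its neighbours, and the lists do not say to which gene the mark belongs.

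Snai2, or Slug, a repressor that is active in the neural crest and in basal cells of stratified epithelia, lies at chr16:14705852-14709395. It had no region in either replicate, and none lay within 100 kb. The nearest was an intergenic region 343 kb away in both replicates, 3.10 kb wide in replicate 1 and 3.43 kb in replicate 2. Of all protein-coding genes, 22.0% were as far or farther from a region in both replicates. Regions thus covered 100% of Snai1 and 0% of Snai2, its close relative, in both replicates.

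Of the Twist genes, Twist1 lay under a wide region in both replicates and Twist2 had a promoter region in replicate 1 only. Twist1, a basic helix-loop-helix factor needed for cranial mesenchyme, lies at chr12:33957671-33959831 and is 2.16 kb long. Its region was 19.1 kb wide in replicate 1 (chr12:33951488-33970607) and 24.6 kb in replicate 2 (chr12:33945797-33970364), of which 18.9 kb was shared, or 76.1% of both joined. The downstream ends lay 243 bp apart between replicates, at 12.9 and 12.7 kb past the start. The upstream ends differed more, at 6.18 kb before the start in replicate 1 and 11.9 kb in replicate 2. This was the only region within 100 kb of Twist1 in either replicate. The neighbour Ferd3l, another helix-loop-helix gene 28.4 kb away, and Hdac9, a histone deacetylase gene 87.7 kb away, were overlapped by none.

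Twist2, also called Dermo1 and expressed in dermal and head mesenchyme, lies at chr1:91801461-91848034 and is 46.6 kb long. Its start was inside a promoter region of 5.53 kb in replicate 1 (chr1:91800013-91805547), which reached 1.45 kb upstream and 4.09 kb downstream and was wider than 35.0% of promoter regions in that list. Replicate 2 had no region over Twist2, and the nearest was 28.2 kb upstream. Replicate 1 also had a 0.928 kb gene body region, 24.6 to 25.6 kb past the start, with no partner in replicate 2. What both replicates shared was a distal region about 43 kb upstream, 4.68 kb wide in replicate 1 (chr1:91753720-91758395) and 2.45 kb in replicate 2 (chr1:91756036-91758484). They shared 2.36 kb, or 49.5% of both joined. Twist2 thus showed 10.8% of its length covered in replicate 1 and 0% in replicate 2, and its promoter mark rests on 1 replicate.

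The Zeb factors are held in check in epithelia by the miR-200 family, 5 microRNAs in 2 clusters that pair with sites in the Zeb1 and Zeb2 messages and that the Zeb proteins repress in turn. The mature 3p strands are shown with the seed, bases 2 to 8, in capitals, from RefSeq on GRCm38.p6, because the seed divides the family into 2 groups.
miR-200a-3p: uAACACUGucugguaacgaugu
miR-141-3p: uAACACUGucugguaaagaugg
miR-200b-3p: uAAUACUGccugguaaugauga
miR-200c-3p: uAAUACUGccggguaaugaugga
miR-429-3p: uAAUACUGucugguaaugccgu
Mir200a and Mir141 share the seed AACACUG, and Mir200b, Mir200c and Mir429 share AAUACUG. None of the 5 genes was overlapped or named by a region in either replicate. On chromosome 4, Mir200b, Mir200a and Mir429 were 78.7, 79.4 and 80.4 kb from the nearest region in replicate 1, and 7.86, 7.07 and 6.08 kb from a 2.35 kb gene body region of Ttll10 in replicate 2. On chromosome 6, Mir200c and Mir141 were 46.5 and 46.9 kb from the nearest region in replicate 1 and 47.5 and 47.9 kb in replicate 2, in both cases a promoter region of the neuronal enolase gene Eno2.

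Zeb2, a zinc-finger homeobox repressor also called Sip1, was marked at its start, in nearly the same place in both replicates. The gene lies at chr2:44983512-45117442 on the minus strand and is 134 kb long. Its promoter region was 8.79 kb wide in replicate 1 (chr2:45110789-45119580) and 8.80 kb in replicate 2 (chr2:45110776-45119577). The edges differed by 13 and 3 bp, so 99.8% of both regions joined was shared, and the mark reached 2.14 kb upstream and 6.65 and 6.67 kb downstream of the first start. Of 1869 pairs of overlapping promoter regions that name a common gene, the Zeb2 pair was the only 1 (0.0535%) with both edges within 20 bp. At least 1 edge within 20 bp was found in 88 pairs (4.71%). The limit of 20 bp was chosen after the Zeb2 edges had been seen. The region also covers Zeb2os, a long non-coding RNA gene at chr2:45111138-45114087, and both names were given to it.

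Replicate 1 had a further Zeb2 promoter region of 6.67 kb (chr2:45102894-45109559), 7.88 to 14.5 kb past the start, with no partner in replicate 2. Between it and the shared region lay a gap of 1.23 kb that holds the fourth annotated Zeb2 start, 512 bp from the nearest replicate 1 region and 499 bp from the replicate 2 region. The mark covered 9.94% of the gene in replicate 1 and 4.98% in replicate 2 (7.46% ± 3.51, SD, n = 2), and the far larger remainder of the 134 kb had no region.

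Zeb1, the closest relative of Zeb2 and likewise a repressor of Cdh1, is 184 kb long and lies on chromosome 18 (chr18:5591327-5775468). No region named or overlapped it in either replicate. The nearest was an intergenic region 45.0 kb away in replicate 1 and 45.1 kb away in replicate 2, with widths of 2.78 and 2.57 kb. A distance as large or larger in both replicates was found for 51.0% of all protein-coding genes.

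Prrx1 was marked in both replicates and Prrx2 was not marked at its promoter in either. Prrx1 lies at chr1:163245119-163315145 on the minus strand and is 70.0 kb long, with its annotated start at 163313650. Its region was 12.1 kb wide in replicate 1 (chr1:163307039-163319114) and 9.82 kb in replicate 2 (chr1:163308016-163317838). The second lay wholly within the first and made up 81.3% of it. The mark reached 5.46 kb upstream and 6.61 kb downstream of the start in replicate 1, and 4.19 and 5.63 kb in replicate 2, near the medians of all promoter regions with a start inside, which were 4.65 and 5.87 kb in replicate 1 and 4.21 and 5.09 kb in replicate 2. It was the only region within 100 kb of Prrx1 in either replicate and covered 10.9% ± 0.99 of the gene (SD, n = 2).

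Prrx2 lies at chr2:30845064-30881251 and is 36.2 kb long. Replicate 1 had no region over it, and the nearest, 1.29 kb past the end of the gene, was a 10.01 kb distal region (chr2:30882538-30892544) assigned to Ptges, the prostaglandin E synthase gene next door. Replicate 2 had a gene body region of 4.08 kb (chr2:30869509-30873586), 24.1 to 28.2 kb past the start. It also had a distal region of 2.18 kb (chr2:30882581-30884759) assigned to Prrx2, which lay wholly inside the replicate 1 region assigned to Ptges. The same stretch of mark thus carried different gene names in the 2 lists. The share of Prrx2 covered was 0% in replicate 1 and 11.3% in replicate 2.

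Pdgfra, the only receptor among the 10 genes, lies at chr5:75151322-75198206 and is 46.9 kb long, with its annotated start at 75152251. Its region was 19.4 kb wide in replicate 1 (chr5:75137295-75156744) and 20.7 kb in replicate 2 (chr5:75136044-75156732). The shared stretch was 19.4 kb, or 93.9% of both joined, and the downstream edges were 12 bp apart. The mark lay mostly upstream: it reached 15.0 kb before the start in replicate 1 and 16.2 kb in replicate 2, but only 4.49 and 4.48 kb past it. On the upstream side it overlapped the long non-coding RNA gene Gm19583 by 9.81 kb in replicate 1 and 11.1 kb in replicate 2. Replicate 2 had a further gene body region of 1.62 kb (chr5:75181379-75183003) with no partner in replicate 1, and the gene was covered by 11.6% in replicate 1 and 15.0% in replicate 2.

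The homeobox gene Gsx2, 73.4 kb away, is the only other protein-coding gene within 100 kb of Pdgfra. It was named by promoter regions in both replicates. Regions covered 23.9% and 20.4% of the 100 kb on either side of Pdgfra together with the gene. Beyond that window, Kit (chr5:75574987-75656722), the stem cell factor receptor gene next along chromosome 5, had promoter regions of 8.88 kb in replicate 1 and 4.73 kb in replicate 2. Kdr (chr5:75932827-75979072), the VEGF receptor gene beyond Kit, carried 8.10 kb of mark at its promoter in replicate 1 and none in replicate 2. Pdgfra, Kit and Kdr all encode receptor tyrosine kinases, and their mark differed in width and in how well the replicates matched.

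Set together, the promoter regions of the 10 genes were wider than most. In replicate 1 the median width of their 8 promoter regions was 15.6 kb (range 5.53 to 26.2 kb), against 8.08 kb for all 2701 promoter regions. In replicate 2 the median of their 6 was 14.5 kb (range 8.80 to 24.6 kb), against 6.84 kb for all 2623. The genes split into a wide group, Snai1, Snai3, Twist1 and Pdgfra, at 11.1 to 26.2 kb, and a narrower pair, Zeb2 and Prrx1, at 8.79 to 12.1 kb, which meet only at the replicate 2 region of Snai3 and the replicate 1 region of Prrx1. Agreement between replicates did not follow the order of width. The share of both regions joined that was common was 99.8% at Zeb2, 93.9% at Pdgfra, 81.3% at Prrx1, 76.1% at Twist1, 68.1% at Snai1 and 46.6% at Snai3, against a median of 62.2% over all 1869 pairs. Twist1 and Pdgfra were wider in replicate 2, and Snai1, Snai3 and Prrx1 in replicate 1, where the median pair had a replicate 2 region 0.903 times as wide as that of replicate 1.

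**Figure D3:**
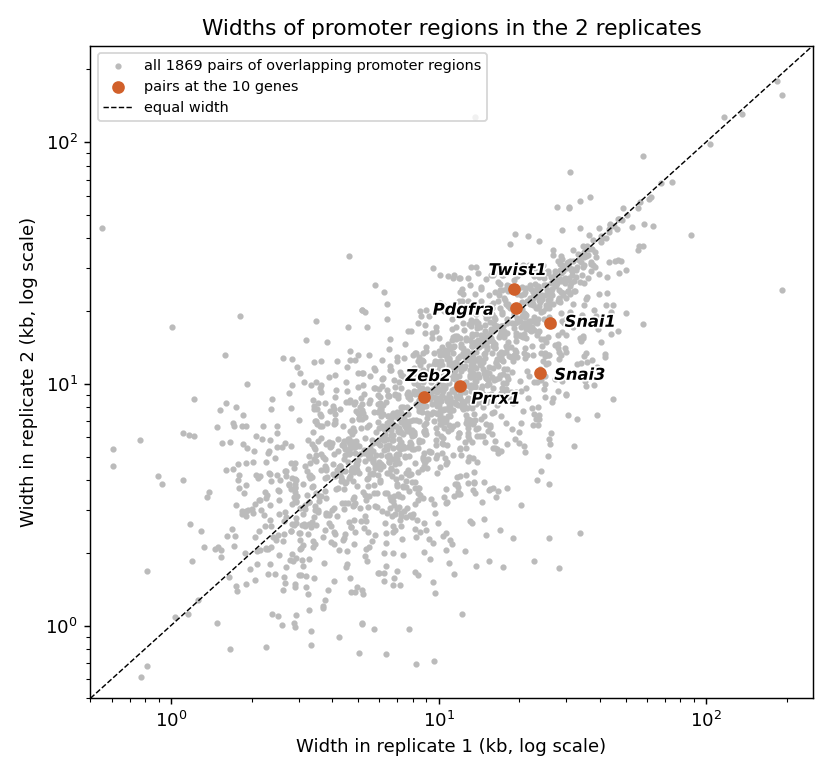
The plot sets the width of each promoter region in replicate 2 against its width in replicate 1, both in kb on log axes, for 1869 overlapping pairs that name a common gene (grey) and the 6 pairs at the genes described here (orange), with a dashed line at equal width. Zeb2 lies on the line at 8.79 and 8.80 kb, and Snai3 lies farthest below it among the 6, at 23.9 kb in replicate 1 and 11.1 kb in replicate 2.

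Other genes of the same pathways were counted by the same rule, a promoter region naming the gene in both replicates, against 8.82% of all protein-coding genes. Relatives of Prrx1 with a paired-type homeobox were marked in 10 of 10 cases, among them Uncx (40.8 kb in replicate 1 and 40.3 kb in replicate 2) and Dmbx1 (30.4 and 24.1 kb). Other transcription factors of mesenchyme were marked in 12 of 12, among them Msx2 (37.5 and 36.2 kb), Tbx15 (38.8 and 33.3 kb), Foxd1 (39.9 and 28.5 kb) and Foxc1 (27.9 and 32.1 kb). No promoter region named Prrx2 in either replicate, while all 22 genes of these lists were marked. Without the widest 5% of regions, 4 of the 10 and 4 of the 12 were left. Helix-loop-helix relatives of Twist were marked in 6 of 8, with Hand2, a heart, limb and jaw factor, the widest at 56.6 kb in replicate 1 and 56.7 kb in replicate 2. Hand1 (23.9 and 21.8 kb), the tendon factor Scx (21.0 and 17.7 kb) and Tcf15 (21.4 and 11.3 kb) followed, and Msc and Tcf23 had no region. Of the Snail relatives Scrt1 and Scrt2, Scrt1 was marked (10.8 and 13.5 kb).

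Other factors known to induce the transition were marked in 6 of 10. Among them were Foxc2 (28.1 kb in replicate 1 and 22.4 kb in replicate 2), Gsc (28.1 and 14.1 kb) and Foxq1 (13.8 and 18.3 kb), while Tcf4, Klf8 and T, the Brachyury gene, had no region. Without the widest 5% of regions, 3 of the 10 were left. The PDGF family and its receptor relatives were marked in 6 of 10. The ligand genes Pdgfb (32.3 and 24.3 kb) and Pdgfa (20.6 and 16.2 kb) carried wide regions, and Pdgfd and Pdgfrl had none. Regions of 12.1 and 21.4 kb were assigned to Pdgfrb, the other PDGF receptor, together with its neighbour Cdx1, and the replicate 1 region lay 0.826 kb outside the Pdgfrb bounds. Other regions also carry a neighbour's name, such as Foxl1 at Foxc2 and Apol7d at Fn1 in both replicates. Genes of TGF-beta signalling, the classical input to the transition, were marked in 0 of 10, with Tgfbr2 and Smad7 named in 1 replicate. Regions of other classes lay over Tgfbr3 and Smad3 in both replicates and over the ligand genes Tgfb1, Tgfb2 and Tgfb3 in replicate 1, and with any class of region 3 of the 10 (Tgfbr3, Smad3 and Smad7) were named in both replicates. Tgfbr1, Smad2 and Smad4 had no region.

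Structural genes and effectors of the mesenchymal state were marked in 4 of 19 cases (21.1%). These were the intermediate filament gene Vim (6.16 and 10.4 kb), the cadherin gene Cdh11 (8.91 and 4.79 kb), fibronectin Fn1 (7.43 and 2.97 kb) and periostin Postn (1.92 and 5.44 kb). All 4 were narrower in at least 1 replicate than the Zeb2 region shared by the replicates (8.79 and 8.80 kb), the narrowest such region of the 6 marked members. Vim in replicate 2 and Cdh11 in replicate 1 were wider than it. Of the 19 genes, 10 had no region, among them Col1a2, Col3a1, Cdh2 and Acta2. Factors that hold the epithelial state were marked in 2 of 15 (13.3%), the zinc-finger genes Ovol1 (18.6 and 9.22 kb) and Ovol2 (5.44 and 4.44 kb), both repressors of Zeb1. With any class of region it was 4 of 15. No region was found at the splicing regulator genes Esrp1 and Esrp2 or at Klf4, Trp63, Cdh1 and Epcam. Differences between these lists are described by their counts and were not tested. Over all lists, 47 of 101 genes (46.5%) were marked. The lists were chosen with earlier results of these data known, so this share describes the chosen genes only.

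**Figure D4:**
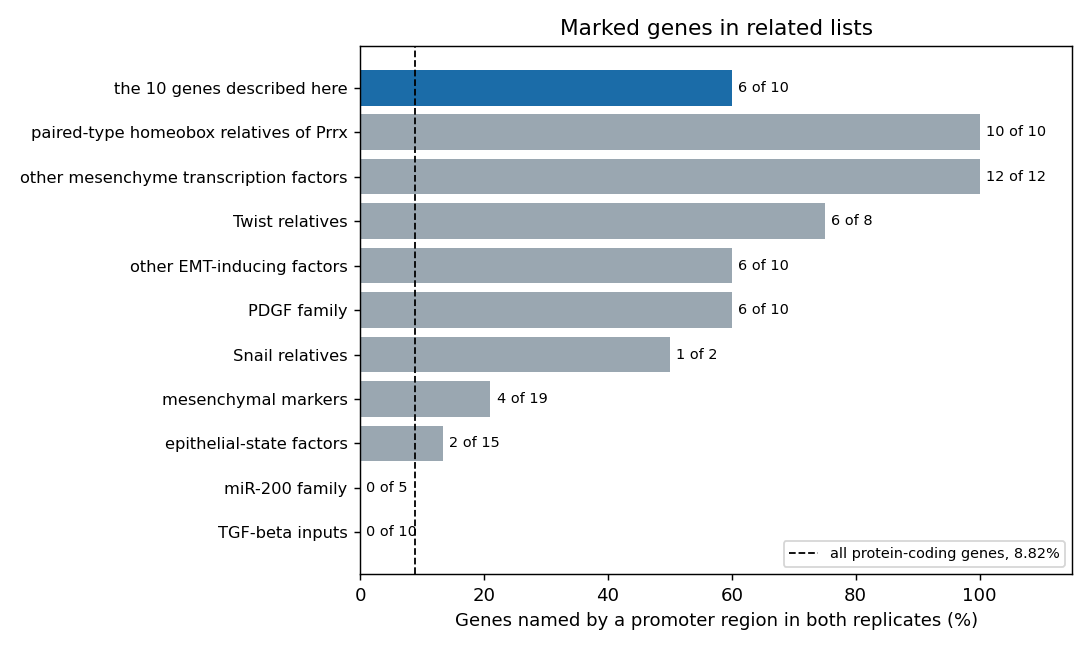
The bars give the percentage of genes in each list that were named by a promoter region in both replicates, with the counts beside them and a dashed line at 8.82%, the share of all protein-coding genes. The 10 genes described here (blue) stand at 6 of 10, below the homeobox relatives (10 of 10), mesenchyme transcription factors (12 of 12) and Twist relatives (6 of 8). They are level with the other inducers and with the PDGF family bar, which includes its receptor relatives (6 of 10 each). They stand above the Snail relatives (1 of 2), mesenchymal markers (4 of 19), epithelial-state factors (2 of 15), the miR-200 family (0 of 5) and TGF-beta inputs (0 of 10).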

How the data were processed

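The authors deposited 1 list of called H2AK119ub regions per replicate, each row with a chromosome, first and last coordinate, location class (promoter, gene body, distal or intergenic) and gene names, per the file headers. The deposited lists hold no counts, scores or p-values (recorded unit: other), which leaves depth unknown and regions without a rank by strength. The build was mm10, and the tools were Bowtie2 2.3.3 and SAMtools 0.1.19, per the submitters' processing notes. For the peak caller, its threshold, use of the input, coordinate base and class distances, the entry is: not given in the sources used here. No gap between regions was under 999 bp.

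Width is last minus first coordinate. Overlap was counted from 1 bp. Gene bounds and starts came from RefSeq tables of GRCm38.p6. Marked means named by a promoter region in each of the replicates. All 10 members are named, and of each related list at most 4 marked genes in order of mean width, plus neighbours sharing a region; genes without a region were named after their values were seen, and a few genes that this rule takes are not reported here. The members and lists were chosen with earlier results of these data known. One group of 2 replicates allows no test between groups, so counts stand beside those of all genes. Interval routines were tested on simulated data. Python 3.11.15, pandas 2.3.3, numpy 2.4.6 and matplotlib 3.10.9 were used.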

Additional observations from a re-analysis of the deposited data

How the results depend on the processing

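Of 121 values recomputed for 15 results, 16 moved. A count moved when it changed by more than 1.5 times or to or from 0. A width or share moved when it changed by more than the SD of the replicates. With 2 replicates, leaving out 1 cannot move a width or share by that rule, so those values are no check on it. Without the widest 5% of regions in each list, the count of marked members was 2 in place of 6, and that of marked related genes 26 in place of 47. Among the lists, that setting left 4 of 12 mesenchyme transcription factors, 4 of 10 paired-type homeobox relatives and 3 of 10 other inducers. For the members this follows from the setting itself, since Snai1, Snai3, Twist1 and Pdgfra each had a region among the widest 5% in 1 replicate. The median promoter width, 15.0 kb averaged over the replicates, was 9.62 kb with regions of any class and 16.8 kb with each member counted once. The covered share of gene bounds, 34.2%, was 34.0% with bounds widened by 5 kb and 33.4% with promoter regions only. Leaving out 1 replicate in turn gave 6 to 7 marked members, 7 to 8 with any region, a median width of 14.5 to 15.6 kb, a covered share of 34.1% to 34.4% and 49 to 52 marked related genes. Requiring an overlap of at least 50% of both regions left 5 members, without Snai3, and widening bounds by 5 kb added Prrx2 to those with any region. With regions of any class, 4 of 15 epithelial-state factors and 3 of 10 TGF-beta genes were named in both replicates. A region over the gene bounds gave 3 TGF-beta genes, and 2 were found with a region within 5 kb, in either replicate or in replicate 2 alone. Above the median width, 2 of 19 mesenchymal markers were left. No paired analysis was possible because the study has 1 ChIP group and no second group to pair with it. With no score in the lists, a stricter threshold could be set by width alone. Depth is unknown, so a gene without a region had no mark that was called, which does not show that it had none.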

Other observations

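Marker genes of other cell types that a tongue preparation can hold were also looked up. Of 4 markers of neurons and glia, Tubb3 and Sox10, a factor of neural crest and glia, were named by a promoter region in both replicates. Widths in replicates 1 and 2 were 9.34 and 7.49 kb at Tubb3 and 24.998 and 8.85 kb at Sox10. In both replicates the Tubb3 region was also assigned to Mc1r and the Sox10 region to Gm10863. A further replicate 2 region of 13.1 kb that names Gm10863 overlapped the replicate 1 region of Sox10. Of 4 skeletal muscle markers, the master regulator Myod1 was marked at 6.19 and 8.19 kb, and Myog, its close relative, was not. Of 4 immune markers, Csf1r was marked, and of 4 endothelial markers none was. Among the endothelial markers, Tek was still overlapped by a region in both replicates and Cdh5 in replicate 2. A promoter region carried the name of Kdr in replicate 1 only. Of all protein-coding genes 8.82% were marked, and these small counts were not tested against that share. The lists measure a histone mark and give no share of any cell type in the sorted cells.

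Among basal promoter letters, searched on both strands of the 10 member windows, TATAAA was in 1 window, that of Twist1, where 12.7% of protein-coding windows hold it. CCAAT was in 4 of the 10, those of Snai1, Twist1, Twist2 and the first Zeb2 start, where 38.5% of protein-coding windows hold it.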
